A study of Mus musculus with 20 samples.

Results

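The regions that carried trimethylated histone H3 lysine 9 (H3K9me3) or trimethylated histone H3 lysine 27 (H3K27me3) were compared in wild-type (WT) mouse embryonic fibroblasts (MEFs). All regions that the authors called for these marks in WT on chromosomes 1 to 19 and X were taken, with no choice by signal. They numbered 38391 of the 120433 regions in all 12 lists from chromatin immunoprecipitation (ChIP), 20730 for H3K9me3 and 17661 for H3K27me3. The chromosomes were read in bins of 1 kb after their first 3 Mb, 2573 Mb in all, and each bin fell into 1 of 4 states: both marks, H3K9me3 alone, H3K27me3 alone or neither. The series had 20 samples, in which the histones H3 and H3.3, the 2 marks, the protein PML and RNA were measured in WT and PML knockout (KO) MEFs. The WT cells were C57BL/6, at passage 10 to 15, proliferating and untreated, and the ChIP with these 2 antibodies used crosslinked cells that were grown to confluency, and both antibodies came from Diagenode. The KO MEFs came from Pml-null mice of the same strain and were kept in the same way. The labels do not say how many embryos or cultures the cells came from. With 1 library for each mark and genotype no difference below has a replicate check, so shares are given with 95% Wilson intervals that cover counting error only, and no test was made.

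H3K9me3 is the mark of constitutive heterochromatin. It is set by the Suv39h enzymes at satellite repeats and by Setdb1, which Trim28 and zinc finger proteins bring to transposons, and it is read by the HP1 proteins. H3K27me3 is set by Polycomb repressive complex 2, whose enzyme is Ezh2, at genes for development that a cell type keeps silent and along the inactive X chromosome. In bulk chromatin, a bin called for both marks may hold them on the same nucleosome, on different alleles or in different cells, and these cannot be told apart.

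Promoters under the 4 states differed in sequence. The window was the 250 bases before the most upstream listed start of each gene, in GRCm38.p6, the assembly of the files' build mm10, with sequences from RefSeq. The dinucleotide CG, the site of DNA methylation, was counted in it. The median was 1 CG in the 1567 promoters (9.07%) whose start lay in H3K9me3 alone, 4 in the 1621 (9.38%) with both marks, 6 in the 4416 (25.6%) with H3K27me3 alone and 15 in the 9670 (56%) with neither, against 10 over all 17274 promoters. No CG at all was found in 29.6% of the H3K9me3 promoters, against 5.77% of those with H3K27me3 alone and 7.17% of all. Counts of 15 or more were found in 4.40% of H3K9me3 promoters, 16.5% of those with both marks, 26.1% of those with H3K27me3 alone and 50.8% of those with neither. The motif TATAAA, searched on both strands and free of overlap with CG, was present in 34.4% of promoters with H3K9me3 alone, 12.9% with H3K27me3 alone, 12.9% with both, 8.62% with neither and 12.5% of all. A match describes the letters in the window and is not a binding site. On autosomes, genes under 1 FPKM (RNA levels are described below) had TATAAA in 39.7% of 1061 promoters with H3K9me3 alone and 19.6% of all. Without olfactory and vomeronasal receptor genes these shares were lower, 29.9% of 415 and 15.4% of all. No CG was found in 35.2% of the 1061 and 24.6% of the 415. At 1 FPKM or more, with receptor genes kept, TATAAA was in 7.33% of 191 and 6.39% of all, and the median was 9 CG and 17 CG. Over all chromosomes median GC content was 39.6% with H3K9me3 alone and 58.8% with neither. Its part in the motif counts was not tested.

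The following 8 promoters show that range, 2 for each state, read 5′ to 3′ with each CG in capitals. Fgf18, a fibroblast growth factor (chr11:33147401-33147650, minus strand, 37 CG), and Krt79, an epidermal keratin (chr15:101940325-101940574, minus strand, 3 CG), started in H3K27me3 alone, and show that CG-rich and CG-poor promoters both lay under that mark.
Fgf18: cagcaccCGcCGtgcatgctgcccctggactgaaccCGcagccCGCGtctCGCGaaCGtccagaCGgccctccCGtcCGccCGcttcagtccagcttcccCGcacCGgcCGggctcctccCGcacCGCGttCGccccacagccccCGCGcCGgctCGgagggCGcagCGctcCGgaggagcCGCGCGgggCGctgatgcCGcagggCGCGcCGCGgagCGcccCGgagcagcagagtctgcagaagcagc
Krt79: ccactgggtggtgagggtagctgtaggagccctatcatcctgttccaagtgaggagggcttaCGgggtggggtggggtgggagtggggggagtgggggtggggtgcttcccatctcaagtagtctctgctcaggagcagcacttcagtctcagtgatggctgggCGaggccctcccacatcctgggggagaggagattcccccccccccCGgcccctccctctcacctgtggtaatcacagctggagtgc
Hoxa10, a homeobox gene of the limb and posterior body (chr6:52240855-52241104, minus strand, 7 CG), and Gstm2, a glutathione transferase (chr3:107986421-107986670, minus strand, 3 CG), started where both marks were called.
Hoxa10: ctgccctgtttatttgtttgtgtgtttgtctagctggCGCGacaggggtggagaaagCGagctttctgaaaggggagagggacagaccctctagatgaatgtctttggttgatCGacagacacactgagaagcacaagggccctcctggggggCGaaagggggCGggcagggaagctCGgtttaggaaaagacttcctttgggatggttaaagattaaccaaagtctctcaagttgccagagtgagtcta
Gstm2: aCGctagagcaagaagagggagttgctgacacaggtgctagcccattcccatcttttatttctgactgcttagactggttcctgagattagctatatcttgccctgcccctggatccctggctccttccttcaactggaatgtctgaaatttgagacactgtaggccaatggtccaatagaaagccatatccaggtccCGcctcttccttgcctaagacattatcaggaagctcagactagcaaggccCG
Vmn2r91, a pheromone receptor of the vomeronasal organ (chr17:18084807-18085056, plus strand, 0 CG), and Cyp2c66, a cytochrome P450 (chr19:39113648-39113897, plus strand, 1 CG), started in H3K9me3 alone.
Vmn2r91: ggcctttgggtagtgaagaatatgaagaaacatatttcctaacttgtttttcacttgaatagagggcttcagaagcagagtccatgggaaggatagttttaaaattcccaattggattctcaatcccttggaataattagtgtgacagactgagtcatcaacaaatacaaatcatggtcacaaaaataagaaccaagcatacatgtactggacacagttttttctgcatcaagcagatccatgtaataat
Cyp2c66: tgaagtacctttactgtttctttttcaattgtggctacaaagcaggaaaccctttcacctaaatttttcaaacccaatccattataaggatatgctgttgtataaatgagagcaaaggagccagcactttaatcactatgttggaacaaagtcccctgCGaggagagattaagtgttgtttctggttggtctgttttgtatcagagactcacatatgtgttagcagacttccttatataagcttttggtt
Col3a1, the fibrillar collagen III chain of fibroblasts (chr1:45311288-45311537, plus strand, 0 CG), and Gdf11, a growth factor of axial patterning (chr10:128891719-128891968, minus strand, 33 CG), started where neither mark was called. The windows of Cyp2c66, Col3a1 and Gdf11 each hold 1 TATAAA. Col3a1 shows that an unmarked and strongly transcribed gene can have a promoter without CG.
Col3a1: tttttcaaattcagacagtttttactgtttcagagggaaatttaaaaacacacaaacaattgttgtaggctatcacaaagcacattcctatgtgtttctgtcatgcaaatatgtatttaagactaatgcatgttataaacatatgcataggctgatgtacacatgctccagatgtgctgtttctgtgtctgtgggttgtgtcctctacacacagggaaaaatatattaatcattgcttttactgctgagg
Gdf11: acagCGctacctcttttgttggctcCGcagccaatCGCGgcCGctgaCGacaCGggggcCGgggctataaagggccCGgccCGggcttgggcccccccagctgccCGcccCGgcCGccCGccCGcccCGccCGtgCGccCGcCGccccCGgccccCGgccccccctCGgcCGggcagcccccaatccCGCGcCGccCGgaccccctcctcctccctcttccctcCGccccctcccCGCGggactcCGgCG

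RNA levels are the authors' FPKM (fragments per kilobase, scaled to the size of the library) in 2 WT tables, that of 1 library with no replicate number and the pooled table of 3 numbered libraries. Unless the numbered table is named, values come from the unnumbered one, and a gene at FPKM of at least 1 is called expressed. The labels do not say which of them came from the cells used for ChIP. All 10 fibroblast markers were expressed in the unnumbered table, between 38.7 and 3109 FPKM, and 9 of 10 in the numbered one, where Thy1 was 0.141. Epithelial, endothelial and pluripotency markers stayed under 1 in the unnumbered table, and in the numbered one the endothelial Kdr was 1.41. Of 4 neuron markers Tubb3 was above 1 in both tables (18.4 and 23.2). Of 8 macrophage markers 7 were at 1 or above there (summed level 53.9) and 0 in the numbered table (summed level 1.06). Xist and the Y-linked Ddx3y were 5.89 and 21.7 in the unnumbered table and 19.5 and 0.0384 in the numbered one. In bulk RNA, more cells of a type and more RNA per cell cannot be told apart, and the part of other cells in the values below was not tested.

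Both marks together covered 410.1 Mb, 15.9% of the analysed bases. H3K9me3 alone covered 430.4 Mb (16.7%), H3K27me3 alone 551.7 Mb (21.4%) and neither mark 1180 Mb (45.9%). So 48.8% of the H3K9me3 length also carried H3K27me3, and 42.6% of the H3K27me3 length also carried H3K9me3. If the marks lay independently of each other, 314.3 Mb would carry both, which makes the observed length 1.31 times that value. H3K27me3 overlapped 58.5% (57.9 to 59.2) of the H3K9me3 regions by at least 1 bp, and H3K9me3 overlapped 64.9% (64.2 to 65.6) of the H3K27me3 regions. At least 0.5 of the length was overlapped in 47.7% and 46.0% of regions, and 34.5% and 30.2% of them lay wholly inside the other mark.

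Cover by the other mark was higher in regions of low signal, the authors' value for each called region. On autosomes, H3K27me3 covered 52.1% of the length of H3K9me3 regions with a signal under 1 and 40.5% of those between 5 and 10. It covered 36.4% of those between 10 and 20 and 19.9% of those at 20 or above (8.58 Mb), against 34.6% of all autosomal bases. H3K9me3 covered 55.7% of the length of H3K27me3 regions under 1, 45.6% of those between 5 and 10 and 33.4% of those at 20 or above. Its cover of all autosomal bases was 31.6%. On chromosomes 10 to 19 the H3K9me3 series ran from 49.5% to 18.9%, while the H3K27me3 series stayed between 30.6% and 34.8%. The H3K9me3 list held more weak regions, with 25.4% of its length under a signal of 1 and 63.5% under 3, against 3.83% and 13% for H3K27me3. When the 300 Mb of highest signal were taken for each mark, their overlap was 25.9 Mb, 0.741 times the length under independence. The excess of shared bases was therefore seen in the full lists and not when both lists were cut to these strongest regions. With a signal of at least 3 for both marks the ratio was 1.10.

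H3K9me3 alone bordered unmarked bases at 23319 of its 34225 borders (68.1%) and both marks at 10903 (31.9%). It met H3K27me3 alone directly at 3, a count that requires 1 mark to end and the other to begin at the same bin edge and is therefore low by construction. Stretches with both marks ended in H3K27me3 alone at 14614 of 29009 borders (50.4%), in H3K9me3 alone at 10903 (37.6%) and in unmarked bases at 3492 (12%). Profiles around edges were taken over regions of at least 10 kb, 11793 for H3K9me3 and 11596 for H3K27me3 on autosomes, and bins deeper inside come from the longer of them. On autosomes, the share of bins with H3K27me3 was 53.2% at 10 kb inside an H3K9me3 region, 45.5% in its last bin, 37.4% in the first bin outside, 31.6% at 10 kb outside and 33.8% at 100 kb. H3K9me3 around H3K27me3 edges went from 35.5% at 10 kb inside to 20.7% at 10 kb outside and 27.8% at 100 kb. Cover by H3K9me3 was lowest at 5 kb outside an H3K27me3 edge (19.7%), and cover by H3K27me3 at 9 kb outside an H3K9me3 edge (31.5%). On chromosomes 10 to 19 the first of these dips was present (12.6% at 5 kb, 20.4% at 100 kb), and the second was not, with 33.9% at 9 kb and 33.6% at 100 kb. The own mark is missing next to an edge by the way regions are listed. Outside autosomal H3K9me3 edges, H3K9me3 itself was 0% at 5 kb, 4.06% at 10 kb and 27.5% at 40 kb. The part of this gap in the dips was not tested. Regions that the other mark did not overlap lay at a median distance of 51 kb from the nearest H3K27me3 region and 37 kb from the nearest H3K9me3 region.

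Over all autosomes, chromosomes differed more in H3K9me3 than in H3K27me3, but within chromosomes 10 to 19 the order was the reverse. H3K9me3 covered between 18.7% of chromosome 19 and 48.1% of chromosome 7, and H3K27me3 between 24.8% of chromosome 16 and 42.7% of chromosome 11 among autosomes. Chromosomes 1 to 9 held 31.7% to 48.1% H3K9me3 and chromosomes 10 to 19 held 18.7% to 33.2%. The same division separates the files: for regions under 100 kb, signal times length in kb was whole within 0.01 for 100% of H3K9me3 and 99.97% of H3K27me3 regions on chromosomes 1 to 9 and X, against 6.25% and 4.53% on chromosomes 10 to 19. The part of this in the cover was not tested, and values within each set are given where they differ. Every autosome had a co-occurrence ratio above 1, from 1.07 on chromosome 7 to 1.67 on chromosome 10. Across the 19 autosomes, H3K27me3 cover went with coding genes per Mb (Pearson r 0.58, Spearman rho 0.64), while the values for H3K9me3 were 0.18 and 0.16. For H3K27me3 they were 0.24 and 0.27 over chromosomes 1 to 9 (n = 9) and 0.77 and 0.65 over chromosomes 10 to 19 (n = 10). For H3K9me3 they were 0.61 and 0.22, and -0.03 and -0.41, so the order of the marks by Pearson r was the reverse on chromosomes 1 to 9. The chromosomes share 1 library per mark, so these values are descriptions.

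**Figure D1:**
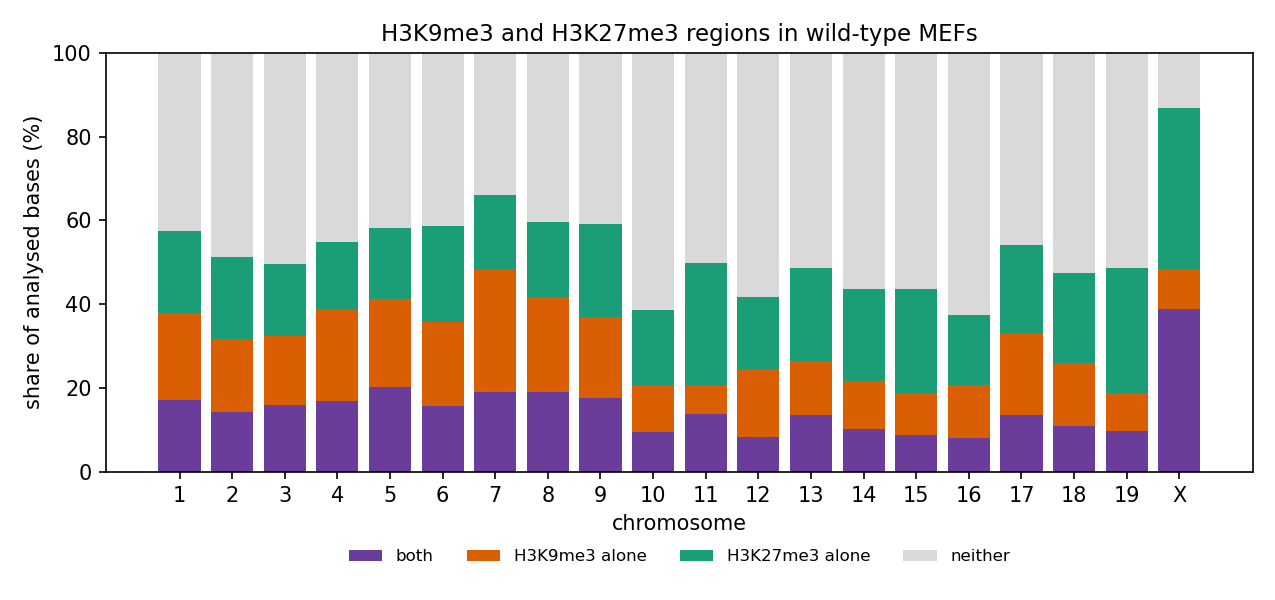
Share of the analysed bases of each chromosome (vertical axis, %) in the 4 states, WT. Bars stack both marks, H3K9me3 alone, H3K27me3 alone and neither; chromosome 7 has the most H3K9me3 among autosomes (48.1%), X has 48.4%, and X has the most H3K27me3 (77.4%).

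The X chromosome stood apart. H3K27me3 covered 77.4% of it and H3K9me3 48.4%, both together 38.9%, and 13.1% was without either mark. The co-occurrence ratio was 1.04, and most H3K9me3 regions met H3K27me3: 92.7% (91.2 to 94.0) of X-linked H3K9me3 regions were touched by H3K27me3, against 56.1% (55.4 to 56.8) on autosomes. Of X-linked genes with neither mark over their body, 61.1% (47.8 to 73.0, n = 54) were expressed, and of those under H3K27me3 alone 58.6% (54.4 to 62.8, n = 527), against 17.0% (15.9 to 18.2, n = 4297) for H3K27me3 alone on autosomes. The starts of expressed X-linked genes were mostly marked, and of the 141 with FPKM from 10 to under 100, 92.2% started in H3K27me3 alone. Whether the ChIP cells had an inactive X was not tested, and an active and an inactive copy cannot be told apart in bulk cells.

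The transcripts of highest level under H3K27me3 alone were mostly X-linked. Of all 304 genes with H3K27me3 alone at 10 FPKM or more, 153 were on X and 151 on autosomes. The 8 genes of highest FPKM under H3K27me3 alone included 7 on X. These were Rpl39 (2602 FPKM in the unnumbered and 2013 in the numbered table), Tmsb4x (2181 and 4615), Rpl10 (1694 and 2368), Rps4x (1466 and 4620), Bgn (926 and 2067), Rpl36a (913 and 4212) and Flna (457 and 542). They encode ribosomal proteins, thymosin beta 4, the matrix proteoglycan biglycan and filamin A, and all 7 had H3K27me3 over 100% of the body. Of all 83 cytosolic ribosomal protein genes 76 had neither mark, 6 had H3K27me3 alone, with Rpl39, Rpl10, Rps4x and Rpl36a among them, and 1, Rpl39l, had H3K9me3 alone (6.78 and 0 FPKM). Of genes with both marks, the 4 with the highest FPKM were also X-linked, namely Agtr2, the angiotensin receptor 2 (67.5 and 0.0783), Dynlt3 (61.5 and 19.8), Rtl3 (58.3 and 0.738) and Rab9 (52.8 and 17.3). Among the longest X stretches of H3K27me3 alone was chrX:52067001-52706000 (639 kb) with the glypican genes Gpc3 (76.3 FPKM) and Gpc4 (105).

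Regions of PML, the protein that organises PML nuclear bodies, had 46.7% of their length in H3K9me3 alone, 23.9% in unmarked bases, 23.3% where both marks lay and 6.19% in H3K27me3 alone. PML regions covered 55.9% of the bases with H3K9me3 alone, 29.2% of those with both marks, 5.78% of those with H3K27me3 alone and 10.4% of those with neither. H3K27me3 alone held less PML than unmarked bases did. The H3.3-Flag regions, from MEFs transfected with a plasmid for tagged H3.3, had a different order from PML and covered 20.3% of unmarked bases, 4.51% of H3K27me3 alone, 4.06% of H3K9me3 alone and 1.17% of both, and 83.5% of their length was unmarked. H3.3-HA regions, which were fewer, covered 5.28% of unmarked bases and 0.305% of bases with both marks. Regions called in the library of H3 itself covered 32.7% of bases with both marks, 23.5% of H3K27me3 alone, 16.0% of H3K9me3 alone and 8.62% of neither. The ratio of shared bases was as high without the H3 regions (1.33).

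Of 21523 protein-coding genes, 1879 (8.73%) had both marks over at least 0.5 of their body, 2146 (9.97%) H3K9me3 alone, 5132 (23.8%) H3K27me3 alone, 11987 (55.7%) neither and 379 (1.76%) no such state. Starts were denser under H3K27me3 than under H3K9me3. There were 8.00 starts per Mb in H3K27me3 alone, 8.19 in unmarked bases, 3.95 where both marks lay and 3.64 in H3K9me3 alone, against 6.71 over the whole space. So the H3K27me3 ground was as rich in genes as unmarked ground and 2.2 times (2.08 to 2.33) as rich as H3K9me3 ground. Starts of expressed genes were much scarcer in it, at 2.12 per Mb against 6.33 in unmarked bases, 0.444 in H3K9me3 alone and 0.329 where both lay. Counted by gene bodies the ratio of H3K27me3 to H3K9me3 was 1.57.

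Most genes under a mark were below 1 FPKM. Of the 19824 genes with an FPKM, 56% were expressed, and among genes with neither mark over the body it was 82.3% (81.6 to 83.0). The share was 10.9% (9.44 to 12.5) with both marks, 23.9% (21.9 to 25.9) with H3K9me3 alone and 21.6% (20.4 to 22.8) with H3K27me3 alone. The order of the marks depended on how a gene was assigned. By the state of the start site it was 9.86%, 15.1% (13.2 to 17.2) and 28.0% (26.7 to 29.4), so H3K9me3 was then the mark with fewer expressed genes. The share of genes without any RNA depended on the receptor genes. Of genes with H3K9me3 alone, 70.7% were listed at 0 and 9.30% were at 10 FPKM or more, against 47.6% and 6.30% with H3K27me3 alone. Without olfactory and vomeronasal receptor genes the shares were 49.0% and 16.5% for H3K9me3 alone and 45.6% and 6.54% for H3K27me3 alone. In the numbered table the shares expressed were 4.77% with both, 19.7% with H3K9me3 alone, 14.9% with H3K27me3 alone and 78.7% with neither.

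**Figure D2:**
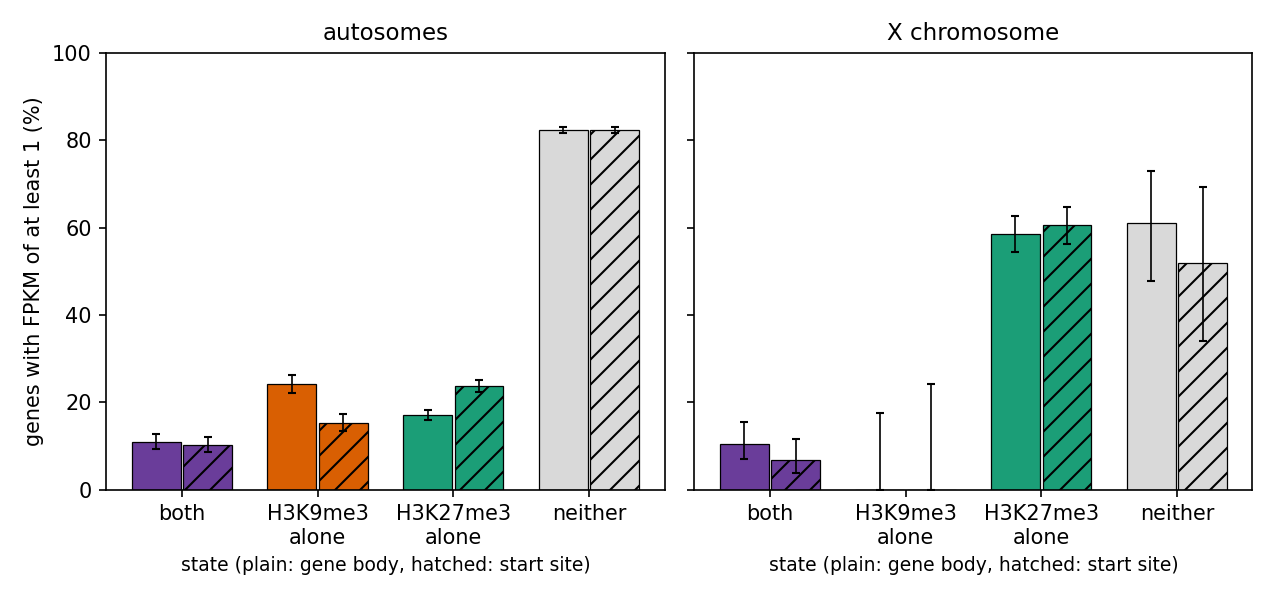
Share of genes with FPKM of at least 1 (vertical axis, %) by state, for autosomes and X, with 95% Wilson intervals as error bars. Plain bars assign a gene by its body and hatched bars by its start site; on X the H3K27me3 genes reach 58.6% by body, against 17.0% on autosomes.

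Gene families fell into different states, as 23 lists of genes show. Genes that belong to tandem clusters of receptors and immune peptides were mostly under H3K9me3 alone. This held for 575 of 1105 olfactory receptor genes, 223 of 350 vomeronasal receptor genes and 36 of 70 defensin genes, against 9.97% of all genes. Of the measured members 1 of 1083 olfactory receptor genes, Olfr613 (1.71 FPKM; named after its value was seen), and 0 of 322 vomeronasal receptor genes were expressed. The median olfactory and vomeronasal gene had H3K9me3 and PML over 100% of its body and H3K27me3 over 0%. Unmarked receptor genes were frequent too, with 277 olfactory and 75 vomeronasal genes, among them Olfr543 (0.337 FPKM) and Olfr307 (0.240). Clustered protocadherins, the adhesion proteins of neuronal identity, had 32 of 57 genes under H3K9me3 alone, 17 under both marks and 0 under H3K27me3 alone. These families hold near-identical copies, so reads may be split between members in ChIP and in RNA.

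H3K27me3 alone held the epithelial and signalling genes. It lay over 47 of 53 keratin genes, with Krt79, Krt77, Krt90 and Krt75 at 100% cover and at most 0.0377 FPKM. Of 19 Wnt ligands 15 had H3K27me3 alone, Wnt7a and Wnt3 among them at 0 FPKM, and 1, Wnt3a, had both marks. Of 22 fibroblast growth factor genes 15 had H3K27me3 alone, among them Fgf18 at 6.22 FPKM and Fgf9 at 0.785. Fgf7, a factor that fibroblasts secrete, had neither mark and 24.1 FPKM. Of 21 genes for bone morphogenetic proteins and growth differentiation factors 13 had H3K27me3 alone, with Bmp6 at 0.865 FPKM and 100% cover. H3K9me3 alone held 0 genes of these 4 lists, and the background for H3K27me3 alone is 23.8%.

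Transcription factors of development were split between H3K27me3 alone and both marks. Of 107 homeobox and other developmental factors 50 had both marks, 41 H3K27me3 alone, 13 neither and 1 H3K9me3 alone, while 8.73% of all genes had both. Pax7 and Pax3, which specify muscle and neural crest, had both marks over 100% of the body and 0 FPKM. Pax5 and Pax2 had H3K27me3 over 100% and H3K9me3 over 35.3% and 32.1%, again with 0 FPKM. The unmarked members included genes of limb and mesenchyme such as Tbx15 (42.7 FPKM) and Irx2 (16.0, and 0 in the numbered table). Of 39 Hox genes 21 had H3K27me3 alone, 11 both and 7 neither, and 32 were expressed in the unnumbered table against 19 in the numbered one. Hoxd13 had both marks with 20.9 FPKM in the unnumbered and 0 in the numbered table, and Hoxa10 had 12.8 and 0.140. Hoxa5 and Hoxb2 had neither mark, with 11.1 and 11.8 FPKM in the unnumbered and 31.0 and 9.76 in the numbered table. These 4 genes were named for their FPKM in the unnumbered table, so nothing is read from their difference between the tables.

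Fibroblast markers and most genes of basic metabolism were unmarked. All 10 fibroblast markers, 73 of 80 respiratory chain genes and 76 of 83 ribosomal protein genes had neither mark over at least 0.5 of the body, against 55.7% of all genes. Of 44 collagen genes 21 were unmarked (47.7%, below that share) and 18 had H3K27me3 alone (40.9%). Col8a2, a short-chain collagen, had H3K27me3 over 84.3% of its body with 90.4 FPKM in the unnumbered and 0.975 in the numbered table. The genes that set, remove or read the marks were mostly unmarked too, 19 of 22 for H3K9 (86.4%) and 24 of 29 (82.8%) for Polycomb and the H3K27 demethylases. Ezh2 had 9.82 and 31.2 FPKM in the unnumbered and numbered table, and Trim28 120 and 181. Setdb1, which itself sets H3K9me3, had H3K9me3 over 74.8% of its body with 13 and 6.35 FPKM, and the X-linked Suv39h1 had H3K27me3 over 100% with 7.03 and 14.6.

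Other families were spread over the states, and several lay near the shares of all genes, which are 55.7% for neither mark, 23.8% for H3K27me3 alone, 9.97% for H3K9me3 alone and 8.73% for both. Of 98 cytochrome P450 genes, the oxidases of steroid and drug metabolism, 28 had H3K9me3 alone, 25 H3K27me3 alone, 23 both and 22 neither, and 11 were expressed. The 52 genes for keratin-associated proteins of hair had 18 with H3K27me3 alone and 16 with H3K9me3 alone, and 0 of 47 measured were expressed. Of 63 serpin genes, the protease inhibitors, 28 had neither mark, 18 H3K27me3 alone, 11 both and 5 H3K9me3 alone, which is 44.4%, 28.6%, 17.5% and 7.94%. Of 44 cadherin and neuronal adhesion genes 26 had neither mark (59.1%) and 10 H3K9me3 alone (22.7%), and 8 were expressed, of which 6 had neither mark. Imprinted genes, which are transcribed from a single parental copy, numbered 42, with 18 in neither mark, 11 in H3K27me3 alone, 6 in H3K9me3 alone and 3 in both, and 4 had no state over 0.5 of the body. Mest, 1 of these 4, had 372 FPKM in the unnumbered and 3.20 in the numbered table.

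**Figure D3:**
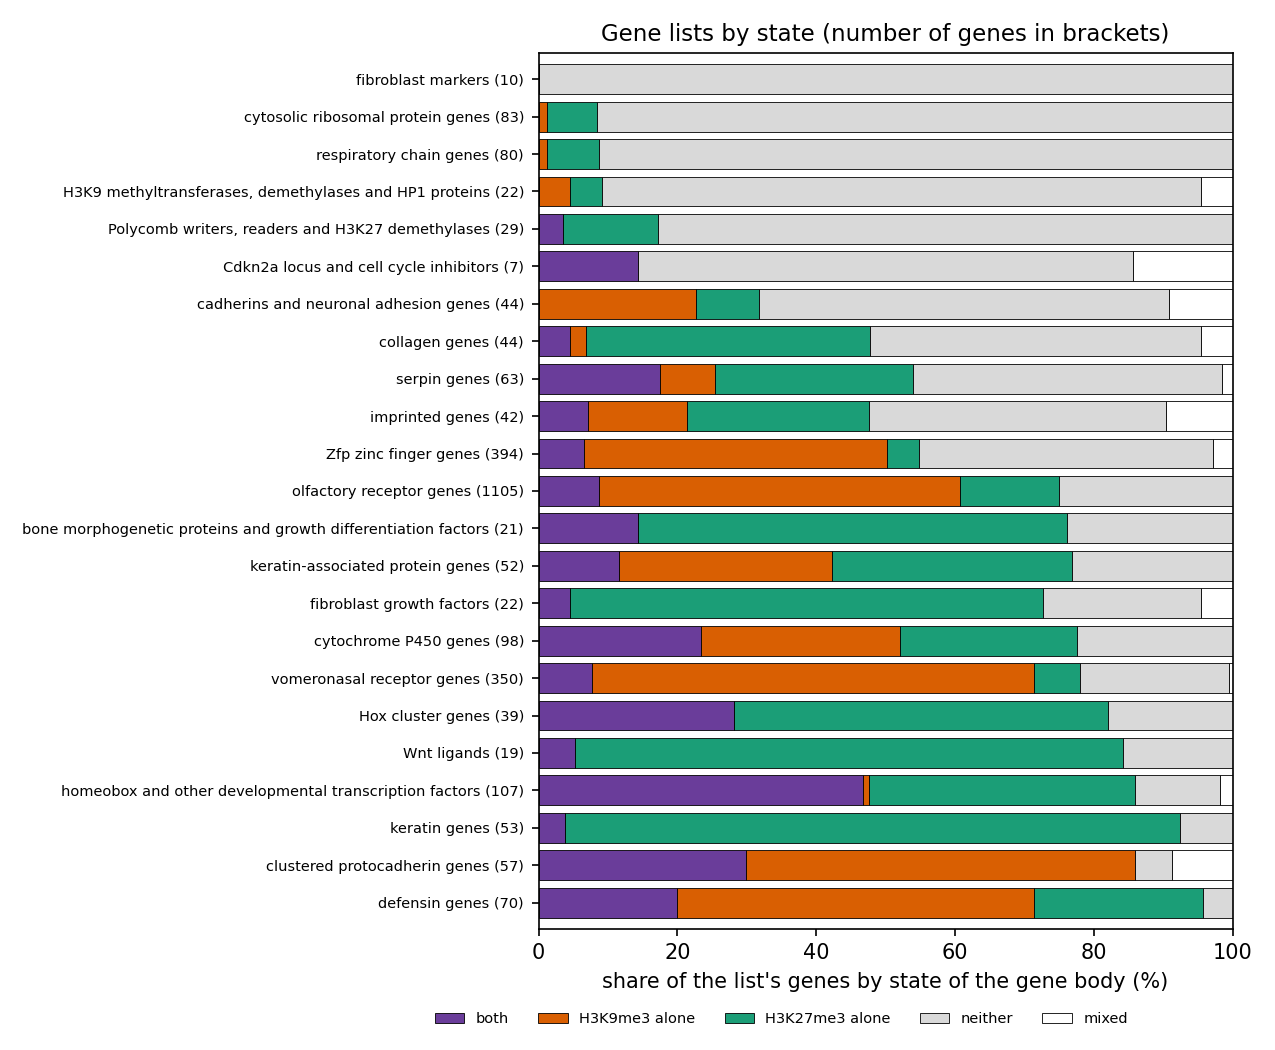
States of the 23 gene lists, as the share of each list's genes (horizontal axis, %) whose body lay by at least 0.5 in the state shown. The number of genes stands in brackets; receptor, defensin and protocadherin lists have the most H3K9me3 alone, keratin and Wnt lists the most H3K27me3 alone, and developmental factors the most genes with both.

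Zinc finger genes named Zfp made up a large share of the expressed genes under H3K9me3. Of 394 of them 172 had H3K9me3 alone, 167 neither, 26 both and 18 H3K27me3 alone. Of the 155 measured genes with H3K9me3 alone, 137 were expressed, at a median of 3.31 FPKM, against 142 of 159 at a median of 5.00 for those with neither. The 137 made up 32.9% of all 416 expressed genes under H3K9me3 alone, while Zfp genes were 1.52% of the 9319 expressed genes with neither mark. The most abundant were Zfp260 (34.3 FPKM, H3K9me3 over 82.7% of the body), Zfp637 (31.3, 55.1%), Zfp146 (29.4, 80.9%) and Zfp266 (27.2, 87.0%). The starts of all 4 were unmarked, but this was not the rule for the 172. Of the 153 among them with a listed start, 97 started in H3K9me3 alone and 53 in unmarked bases. Chromosome 7 held 43 of the 172 and 93 of all 394 Zfp genes, chromosome 13 24 and 37, chromosome 17 21 and 45, and chromosome 4 20 and 27. Without the olfactory and vomeronasal receptors, 42.3% of genes with H3K9me3 alone were expressed. The X chromosome had 8 Zfp genes, and 0 of them had H3K9me3 alone.

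The mark lay over the end of these genes more than over their start. Over autosomal genes of at least 10 kb, divided into 10 equal parts, the mean H3K9me3 cover of the 215 expressed Zfp genes was 34.4% in the first part, 54.5% in the fifth, 67.0% in the ninth and 65.4% in the last. In 6338 other expressed genes of any state it was 4.62% in the first and 10.5% in the last part. In 3437 genes under 1 FPKM it was level, 26.8% and 27.1%. In 176 other expressed genes with H3K9me3 alone over the body it was 39.4% in the first part and 67.9% in the last. It was highest in part 6 of 10 there, at 92.2%. More H3K9me3 at the end than at the start was therefore not particular to Zfp genes. The 215 Zfp genes were not selected by state. H3K27me3 in expressed Zfp genes stayed between 5.62% and 13.2%. The last exon of Zfp genes usually encodes the array of zinc fingers, and its part in the profile was not tested.

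**Figure D4:**
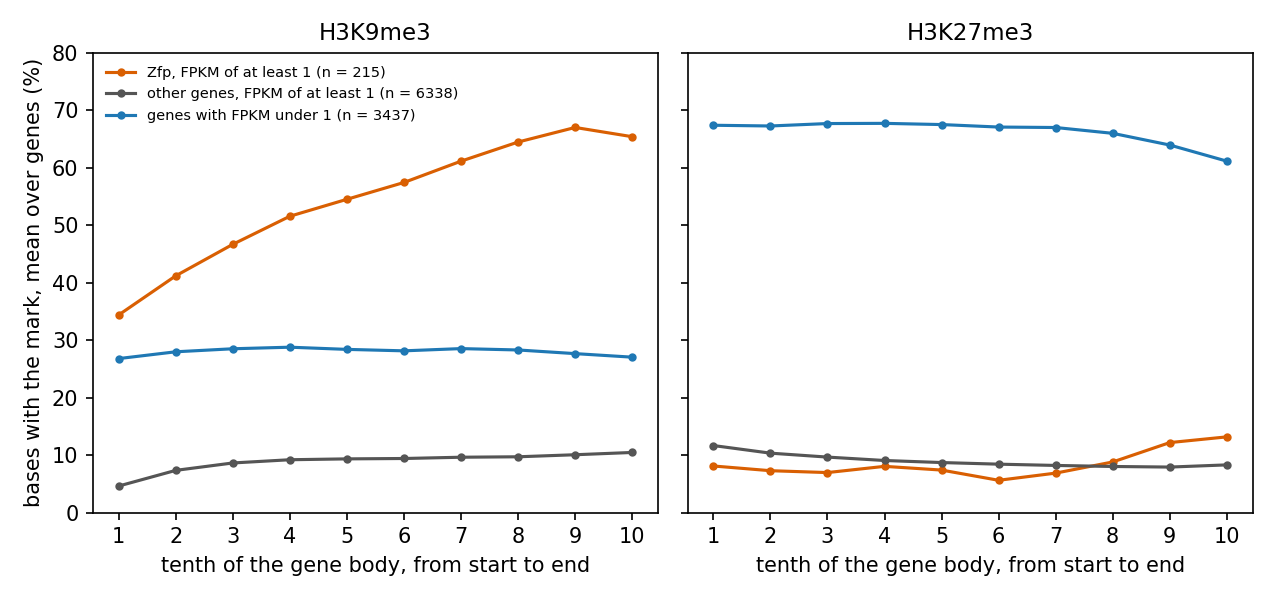
Mean share of bases with each mark (vertical axis, %) along the gene body in 10 equal parts from start to end (horizontal axis), for autosomal genes of at least 10 kb. H3K9me3 goes from 34.4% to 65.4% along expressed Zfp genes, stays between 4.62% and 10.5% along other expressed genes, and H3K27me3 covers 61.2% to 67.8% along genes under 1 FPKM.

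Expressed genes under H3K9me3 often had an unmarked start. Of genes with H3K9me3 alone over the body, those whose start was unmarked were expressed in 178 of 212 cases (84.0%), and those whose start had H3K9me3 alone in 147 of 1160 (12.7%). Without Zfp genes these were 130 of 161 (80.7%) and 74 of 1073 (6.90%). For H3K27me3 alone, with X included, the shares were 73 of 292 (25%) with an unmarked start and 732 of 3282 (22.3%) with a marked one. By start site alone, 60.6% of 487 X-linked genes that started in H3K27me3 alone were expressed, against 23.7% of 3690 on autosomes. The 2 shares were not split by chromosome, so their closeness is not read as a result for autosomes. The genes of highest FPKM under H3K9me3 alone were Mgp, the matrix Gla protein (2188 and 3244 in the unnumbered and numbered table, 100% cover), Cnn2 or calponin 2 (397 and 915), the translation factor Eif3e (237 and 267.3), Igfbp2 (223 and 67.5), Qsox1 (135 and 87.9), Basp1 (118 and 156), Ndufc2 (104 and 151) and the gap junction gene Gja1 (102 and 20.9). Cnn2, Qsox1, Basp1, Ndufc2 and Gja1 had unmarked starts, that of Igfbp2 had both marks, and Mgp and Eif3e had no listed start. All 8 were expressed in both tables.

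On autosomes, expression under H3K27me3 was less shared between the 2 RNA tables. There, 732 genes with H3K27me3 alone were expressed in the unnumbered and 457 in the numbered table, with 364 in both, which is 49.7% of the first and 79.6% of the second. For genes with both marks 152 and 65 were expressed and 50 were shared, 32.9% and 76.9%. For H3K9me3 alone 416 and 344 were expressed and 341 were shared, 82.0% and 99.1%, and for neither mark 8741 were shared, 94.1% and 98.4%. On X the shares for H3K27me3 alone were higher, with 309 and 263 expressed and 259 shared, 83.8% and 98.5%. X-linked genes with both marks had 21 and 11 expressed and 11 shared, 52.4% and 100%. The part of genes near 1 FPKM in these shares was not tested. The autosomal genes of highest FPKM in the unnumbered table are given with both values, and since that table chose them they are no support for the difference. Igf2, the fetal growth factor, had 390 FPKM in the unnumbered and 0.183 in the numbered table, Fos, an immediate early gene, 440 and 18.5, Crabp1, a retinoic acid binding protein, 217 and 2.46, and Igfbp3 208 and 5.91. Mrfap1 (262 and 260) and Rabac1 (151 and 460) were high in both tables. Among autosomal genes with both marks, Fzd1, a Wnt receptor, had 50.3 and 36.1, Gstm2 44.5 and 38.6, Gpx7 44.0 and 60.7, and Cdkn1c, an imprinted cell cycle inhibitor, 36 and 0.171. The 2 tables differ in more than these genes, as the macrophage and sex-linked transcripts above show, and which of them matches the ChIP cells was not tested.

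Around start sites the 2 marks had different shapes. H3K9me3 was lowest at the start bin or the bin after it in each class of RNA level. On autosomes it lay on 41.0% of start bins of genes listed at 0, 15.8% of those above 0 and under 1 FPKM, 6.20% of those from 1 to under 10 and 1.57% of those at 10 or more. In the unnumbered table H3K27me3 was not highest in the most silent class: it lay on 56.8%, 64.9%, 19.3% and 5.30% of start bins in the same order. In that table, genes with traces of RNA thus had more H3K27me3 and far less H3K9me3 at their start than genes listed at 0. In the numbered table, 42.2% of autosomal genes listed at 0 and 44.8% of those with traces started in H3K27me3 alone. Both marks lay at 18.6% and 9.55% of these starts, and H3K9me3 alone at 20.6% and 3.82%. With both marks counted in, H3K27me3 was thus more frequent at starts of genes listed at 0 there. At 10 kb upstream of genes at 10 FPKM or more, H3K27me3 lay on 39.5% of bins, against 34.6% of all autosomal bases. It lay on 34.2% at 5 kb upstream, 20.5% at 2 kb upstream, 4.10% at 4 kb downstream and 7.56% at 10 kb downstream, so the lower cover reached a few kb upstream of the start. H3K9me3 there was 11.3% upstream and 8.56% downstream.

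**Figure D5:**
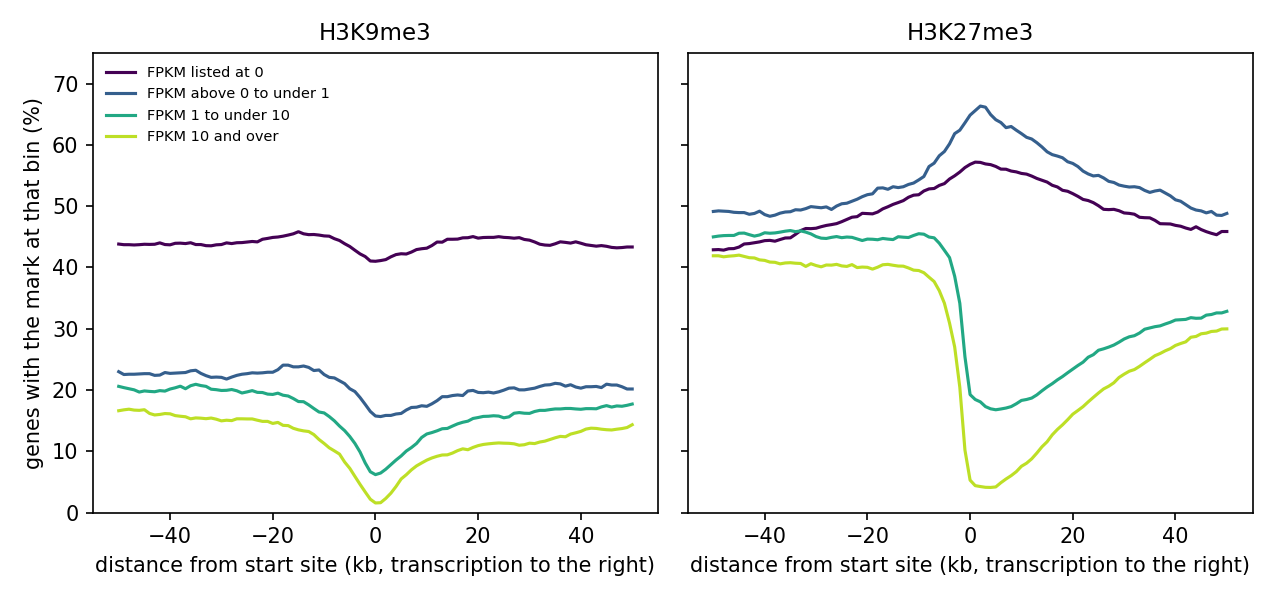
Share of autosomal genes with H3K9me3 (left) or H3K27me3 (right) in each 1 kb bin (vertical axis, %) against distance from the start site in kb (horizontal axis), for 4 classes of FPKM. H3K27me3 reaches 64.9% at starts of genes above 0 and under 1 FPKM and 5.30% at starts of genes at 10 or more, while H3K9me3 is highest for genes listed at 0 (41.0%).

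Promoters of the same RNA class but different CG content fell into different states. Among silent autosomal genes (under 1 FPKM) with 0 to 4 CG in the promoter, 25.5% of 3982 starts had H3K9me3 alone and 33.9% H3K27me3 alone. Among silent genes with 15 CG or more, 4 of 962 starts (0.416%) had H3K9me3 alone and 579 (60.2%) H3K27me3 alone. The share with both marks was 14.9% and 19.3%, a smaller spread than for either mark alone. Among expressed genes with 15 CG or more, 7.89% of 5070 starts had H3K27me3 alone, 1.14% H3K9me3 alone and 89.9% neither. The silent genes with H3K9me3 alone at the start had a median of 1 CG with and without the receptor genes (1061 and 415 promoters).

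The longest unbroken stretches are given with genes they held. Only genes annotated as protein-coding were counted in them, so a stretch with few of these may hold genes of other classes. The longest with H3K9me3 alone on an autosome was chr12:113500001-115997000, 2497 kb, which held Adam6a (0 FPKM) as its only coding gene, and PML regions covered 100% of it. The next were chr8:19540001-20946000 (1406 kb) with Defb33 among 9 coding genes and chr14:35356001-36427000 (1071 kb) with the glutamate receptor gene Grid1 in part (0.0382 FPKM). The longest with H3K27me3 alone were chr9:44968001-45764000 (796 kb), with Dscaml1 at 0 FPKM and Fxyd6 at 34.7, and chr16:96168001-96873000 (705 kb) with part of Dscam at 0 FPKM. Those with both marks included chr4:130922001-131803000 (881 kb) with Matn1 (0 FPKM) and parts of Ptpru (0.393) and Laptm5 (3.51), and chr4:139726001-140513000 (787 kb) with Pax7. Regions called in the H3 library covered 100% of the 881 kb and 787 kb stretches, 99.7% of the 796 kb and 85.4% of the 705 kb stretch. They covered 2.00% of the 2497 kb, 14.2% of the 1406 kb and 0% of the 1071 kb stretch. The part of this in the calls was not tested. On X the longest with both marks was 2340 kb, against 983 kb on autosomes. The strongest H3K9me3 region of at least 5 kb was chr13:119597001-119614000 at Tmem267 (signal 123), without H3K27me3. That of H3K27me3, chr8:123537001-123628000 (signal 215), lay on the 5S ribosomal RNA array, where near-identical copies can share reads.

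The same genes were also placed by the KO lists. Of genes with H3K9me3 alone in WT, 21.2% had H3K9me3 alone in KO, 48.5% neither mark, 17.0% both and 11.9% H3K27me3 alone. Of genes with both marks in WT 76.8% had both in KO, of those with H3K27me3 alone 40.0% had it alone and 36.5% both, and of unmarked genes 88.8% were unmarked in KO. Each list is 1 library, so genotype and library cannot be told apart here. The H3K9me3 lists also differ in weak regions, with 63.5% of the WT length and 0.26% of the KO length under a signal of 3. H3K9me3 covered 77.4% of chromosome 5 and 11.4% of chromosome 1 in KO, against 41.2% and 37.9% in WT. The part of these differences in the KO states was not tested.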

How the data were processed

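Regions were called by the authors and deposited, 1 list per library, with start, end and a value per region; the caller is not given in the sources used here. That value was used as a deposited signal or score, to rank and filter regions within a list. Per the submitters' processing notes the build was mm10; Cuffdiff 2.2.1, Cufflinks 2.2.1, TopHat2 2.0.8b and Bowtie 1.0.0 are also named there, with no role given. RNA levels are deposited FPKM, and the numbered WT libraries came as 1 pooled column, so they have no SD. Lines that join several genes were left out. Read depth is not given in the files, so no depth could be set beside a value.

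From these, bins of 1 kb were assigned to 4 states, genes to the state over at least 0.5 of the body or to that of the bin at the start, and lengths, counts and shares were computed with Python 3.11.15, numpy 2.4.6, pandas 2.3.3, scipy 1.17.1 and matplotlib 3.10.9. The state code was tested on simulated data. Listed starts of 17274 genes were used, and 89.9% lay within 1 kb of the gene's outer edge. Genes were named by rule: genes with the most bases in the 5 longest stretches of a state, the 8 of highest FPKM per state, in each list the 4 most covered members and the 4 of highest FPKM that go against its most frequent state, and the 5 strongest regions of at least 5 kb. Zfp260, Zfp637, Zfp146, Zfp266, Ezh2, Trim28, Olfr613 and the autosomal genes of highest FPKM were added after their values were seen. The regions, lists and members were chosen with earlier results of these data known.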

Additional observations from a re-analysis of the deposited data

How the results depend on the processing

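The co-occurrence ratio of 1.31 was 1.23 with a signal of at least 1, 1.10 with at least 3, 0.741 for the 300 Mb of highest signal, 1.41 on chromosomes 10 to 19, 1.23 on chromosomes 1 to 9 and X, 1.33 without H3-called bases and 1.34 over whole chromosomes. The share of H3K9me3 regions touched by H3K27me3 (58.5%) was 55.2%, 45.7%, 11.2%, 46.6%, 65.2% and 56.4% in the first 6 of these settings, 56.1% on autosomes and 47.7% when at least 0.5 of a region had to be overlapped. The gene density ratio of 2.2 was 2.00 and 1.56 at those signals, 2.67 for the strongest 300 Mb, 2.47 on chromosomes 10 to 19, 1.88 without H3-called bases and 1.57 by gene bodies. The difference in the share of expressed genes, H3K27me3 alone minus H3K9me3 alone, was -2.30 percentage points. It was -7.52 with a signal of at least 3, -11.1 for the strongest 300 Mb, -15.0 on chromosomes 10 to 19, -7.09 on autosomes, -4.80 in the numbered table, -40.2 among genes above 0 and -19.9 without receptor genes. It changed sign on chromosomes 1 to 9 and X (3.99), without H3-called bases (1.97), by start site (12.9), with 0.8 of the body required (6.99) and with an FPKM of 0.1 as threshold (14.3). The cause was not tested, and which mark has more expressed genes was not settled by these lists. The median log2 level of unmarked genes minus that of genes with H3K27me3 alone (3.35) was 6.14 with a pseudocount of 0.1 and 1.34 among genes of at least 1 FPKM. Settings by autosomes, gene bodies and receptor genes were chosen after seeing the data. No paired analysis was possible because each ChIP group has 1 library and the numbered RNA libraries came as 1 pooled column.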
